A study of Mus musculus with 12 samples.

Results

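The response to all-trans retinoic acid (atRA) in F9 cells whose label, RARaKO, denotes loss of Rara (retinoic acid receptor alpha), was read from 6 of the 12 arrays of the series. These were the 3 arrays whose titles give RARaKO with atRA and the 3 whose titles give RARaKO with the ethanol vehicle, 1 of each in the sets numbered 2, 3 and 4. F9 is a mouse teratocarcinoma line. All 4 groups of the study (WT vehicle, WT atRA, RARaKO vehicle and RARaKO atRA, 3 arrays each) were plated 16 h ahead and pretreated for 30 min with cycloheximide at 1 µg/ml, which blocks protein synthesis and was present for 8 h in all. The atRA groups then received atRA at 1 µM for 7.5 h and the vehicle groups ethanol at 0.1%. The labels name the cell line and the genotype, but neither the clone nor the way the gene was disrupted. They describe the replicates only as sets, so a p-value here reflects only how far these arrays differ, and that spread may be technical.

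Retinoic acid binds the nuclear receptors RARα, RARβ and RARγ, which pair with RXR receptors on response elements in the DNA and switch from repression to activation when the ligand binds. The response elements are mostly direct repeats of a short half-site, and the classical targets include genes that break down retinoic acid, the receptor gene Rarb and the Hox genes at the 3′ ends of their clusters. F9 cells resemble the undifferentiated cells of the early embryo and turn toward endoderm when given retinoic acid. With cycloheximide present, a transcript that depends on a newly made protein is not expected to follow.

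Each value is a log2 expression value from which the probe set's own median of the 12 arrays has been taken away. The files therefore hold differences between arrays, and no level of one gene against another. Rara, the gene named in the label, has 1 probe set on the array. In the arrays labelled RARaKO its values in sets 2, 3 and 4 were 0.29, 0.32 and 0.30 in vehicle and 0.26, 0.05 and 0.29 in atRA. The WT means were -0.60 ± 0.14 in vehicle and -0.16 ± 0.11 in atRA (SD, n = 3), below every array labelled RARaKO. This probe set therefore goes against the label, and the labels do not say which part of the gene was removed or whether this probe set lies in it. The group is called by its label throughout. Every value below is a log2 difference of atRA minus vehicle, with the standard error of the fit after ±, and values in a row follow sets 2, 3 and 4. A difference was called when its limma p, adjusted by Benjamini-Hochberg over all 37600 probe sets, was below 0.05. This main fit left the set number out, and calls from a fit that used it are named as such.

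All 10 markers of undifferentiated F9 cells (among them Pou5f1, Nanog and Sox2) had a median in the highest of the level classes recovered from the number format, a log2 value of at least 8. That class held 36.2% of all probe sets. Each gene was read by its probe set of the highest class, which favours genes with several probe sets. None of the 10 was called, and their differences ran from -0.25 to 0.03. Of the markers of other cell types, 9 of 12 measured endoderm genes, 3 of 9 trophoblast genes, 2 of 9 fibroblast genes and 0 of 4 blood genes were in that class, and Pdgfrb, of the fibroblast markers, was the sole member called. With the set number as a block, described below, Ascl2 of the trophoblast markers was called too, at -0.67 ± 0.12 (limma, adjusted p = 0.0467). In these bulk samples a change in the share of cells and a change in RNA per cell cannot be told apart. The array of atRA set 2 had the widest spread over probe sets, with an SD of 0.201, against 0.134 to 0.156 for the other 5 arrays labelled RARaKO. Control probe sets did not part the groups: the mean 5′ minus 3′ difference ran from -0.0227 to 0.132 over the vehicle arrays and from 0.0012 to 0.0897 over the atRA arrays, and 0 of the 61 control probe sets was called (limma, smallest adjusted p = 0.768).

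The comparison asks which transcripts still respond to retinoic acid in cells labelled as lacking RARα. Of 37600 probe sets, 99 were called (0.263%), 81 higher (0.215%) and 18 lower (0.0479%) in atRA. The higher ones had a median difference of 0.65 and the lower ones of -0.47, against -0.004 over all probe sets, and 13 rose and 0 fell by at least 1 log2 unit. In all 99 the atRA and vehicle arrays did not overlap, which also makes the 3 sets move the same way. Groups that did not overlap were found for 4779 of all 37600 probe sets (12.7%). The 99 were chosen by their p in these same arrays, so their separation is no further support. The called probe sets named 67 genes that rose and 17 that fell. Reading each gene by 1 probe set, 56 genes rose (0.339%) and 10 fell (0.0606%) of 16509 measured. With the set number as a block, a term that lets each set keep its own level, the count was 167, with 124 higher and 43 lower (limma), and 95 of the 99 were among them. When single arrays labelled RARaKO were left out, the count was 57, 39 and 55 without vehicle sets 2, 3 and 4 and 69, 56 and 61 without atRA sets 2, 3 and 4. Without WT arrays, which lend degrees of freedom to the fit, it was 14 with these 6 arrays alone and 62 with the 6 arrays and the block.

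**Figure D1:**
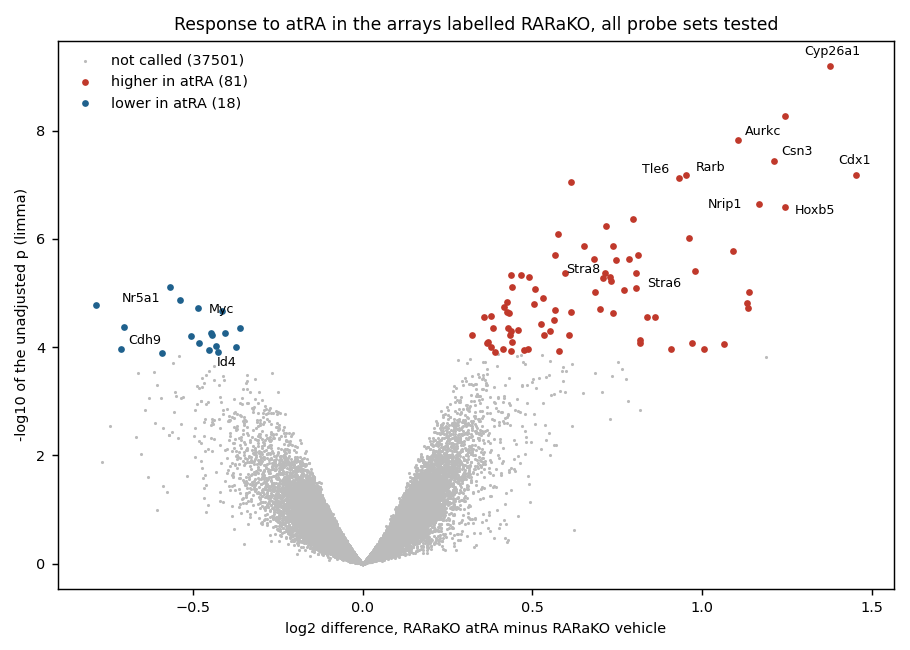
Log2 difference between RARaKO atRA and RARaKO vehicle (x axis) against -log10 of the unadjusted limma p (y axis) for 37600 probe sets. The 81 called higher (red) reach further from 0 than the 18 called lower (blue), and Cyp26a1 has the smallest p.

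Genes of retinoid handling, which make, move or break down retinoic acid, included Cyp26a1, whose rise had the smallest p of all probe sets. Cyp26a1 encodes the cytochrome P450 that begins the breakdown of retinoic acid. Its values in the arrays labelled RARaKO were -0.70, -0.73 and -0.82 in vehicle and 0.68, 0.63 and 0.57 in atRA. Every atRA array lay far above every vehicle array, and the difference was nearly the same in each set, at 1.37, 1.36 and 1.40. It rose by 1.38 ± 0.08, or 2.60-fold (limma, adjusted p = 2.37e-05), and it was the sole gene whose call held without each whole set in turn. Dhrs3, a reductase that returns retinaldehyde to retinol, stood at -0.34, -0.23 and -0.50 in vehicle and at 0.43, 0.38 and 0.23 in atRA, a rise of 0.71 ± 0.09. Stra6, the cell surface receptor for retinol uptake, stood at -0.19, -0.19 and -0.18 in vehicle, the tightest of these vehicle groups, and at 0.82, 0.44 and 0.60 in atRA, a rise of 0.81 ± 0.10. These were the 3 of 29 measured genes of retinoid uptake, storage and metabolism that rose (10.3%, against 0.339% of all genes). None fell, and the list's median was -0.02, against -0.01 over all genes. Lrat, which stores retinol as esters, differed by 0.41 ± 0.10 and Aldh1a2, which makes retinoic acid, by -0.37 ± 0.09, with arrays that did not overlap but without a call (limma, adjusted p = 0.203 and 0.207). Cyp26b1, a second retinoic acid hydroxylase, differed by 0.12 ± 0.15 and Crabp2, a carrier of retinoic acid in the cell, by 0.01 ± 0.07, and in both the groups overlapped.

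Of the retinoic acid receptor genes, Rarb, which encodes RARβ, was the one called. Its values were -0.56, -0.50 and -0.31 in vehicle and 0.51, 0.34 and 0.63 in atRA. The lowest atRA array stood well clear of the highest vehicle array, and the gene rose by 0.95 ± 0.09, or 1.94-fold (limma, adjusted p = 4.05e-04). Rarg, which encodes RARγ, differed by 0.11 ± 0.07 (adjusted p = 0.758), Rxra by 0.05 ± 0.09 (0.938) and Rara by -0.10 ± 0.09 (0.839), all in limma and all with overlapping groups. Nrip1 encodes a corepressor that binds nuclear receptors when their ligand is present. It stood at -0.38, -0.43 and -0.74 in vehicle and at 0.77, 0.77 and 0.40 in atRA, apart in every array, and rose by 1.17 ± 0.12. A further 2 of its 6 probe sets were called, at 1.00 and 1.13. Rarb and Nrip1 were the 2 of 32 measured receptors and co-regulators that rose (6.25%, against 0.339% of all genes). Nr5a1 was the 1 that fell (3.12%, against 0.0606%). The median of the list was 0.02.

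Upstream sequence could be set beside these values for genes with a RefSeq promoter entry (build GRCm38.p6), which 47 of the 67 genes that rose and 10 of the 17 that fell had. The 250 bases before the start were searched on both strands for a repeat, in the same direction, of half-sites, each of which could be AGGTCA or else AGTTCA or else GGGTCA or else GGTTCA, with 5, 2 or 1 bases between the 6-base copies. A repeat spaced by 5 bases was found in 2 of the 47 genes that rose, or 4.26%, and in 10 of 13164 measured genes, or 0.076%. Of all 32851 promoters given, 0.0883% held it. None of the 10 genes that fell held it. Repeats spaced by 1 or 2 bases were found in 0 of the 47, against 0.205% and 0.076% of measured genes. The 2 genes were Cyp26a1 and Rarb, the only called genes that the search matched, and their upstream sequences are shown here. Each is printed 5′ to 3′ on the gene's strand, ending at the base before the start, with the repeat in capitals. For Cyp26a1 the window is chr19:37697558-37697807 on the plus strand. The repeat lies at chr19:37697776-37697792, 32 to 16 bases before the start, and reads AGTTCACCCAAAGTTCA on the opposite strand. For Rarb the window is chr14:16575477-16575726 on the minus strand, and the repeat lies at chr14:16575513-16575529, 53 to 37 bases before the start. A match describes the letters and does not show that a receptor binds there.
Cyp26a1: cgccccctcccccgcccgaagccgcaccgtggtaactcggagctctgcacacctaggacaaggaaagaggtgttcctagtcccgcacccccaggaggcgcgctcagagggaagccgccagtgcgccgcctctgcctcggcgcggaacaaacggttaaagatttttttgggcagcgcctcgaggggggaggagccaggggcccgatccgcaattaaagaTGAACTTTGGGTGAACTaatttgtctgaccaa
Rarb: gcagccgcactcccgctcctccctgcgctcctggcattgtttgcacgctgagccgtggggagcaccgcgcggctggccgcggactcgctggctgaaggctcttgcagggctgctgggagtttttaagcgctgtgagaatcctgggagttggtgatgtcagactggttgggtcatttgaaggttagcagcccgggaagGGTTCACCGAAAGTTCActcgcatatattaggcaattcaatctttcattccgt

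**Figure D2:**
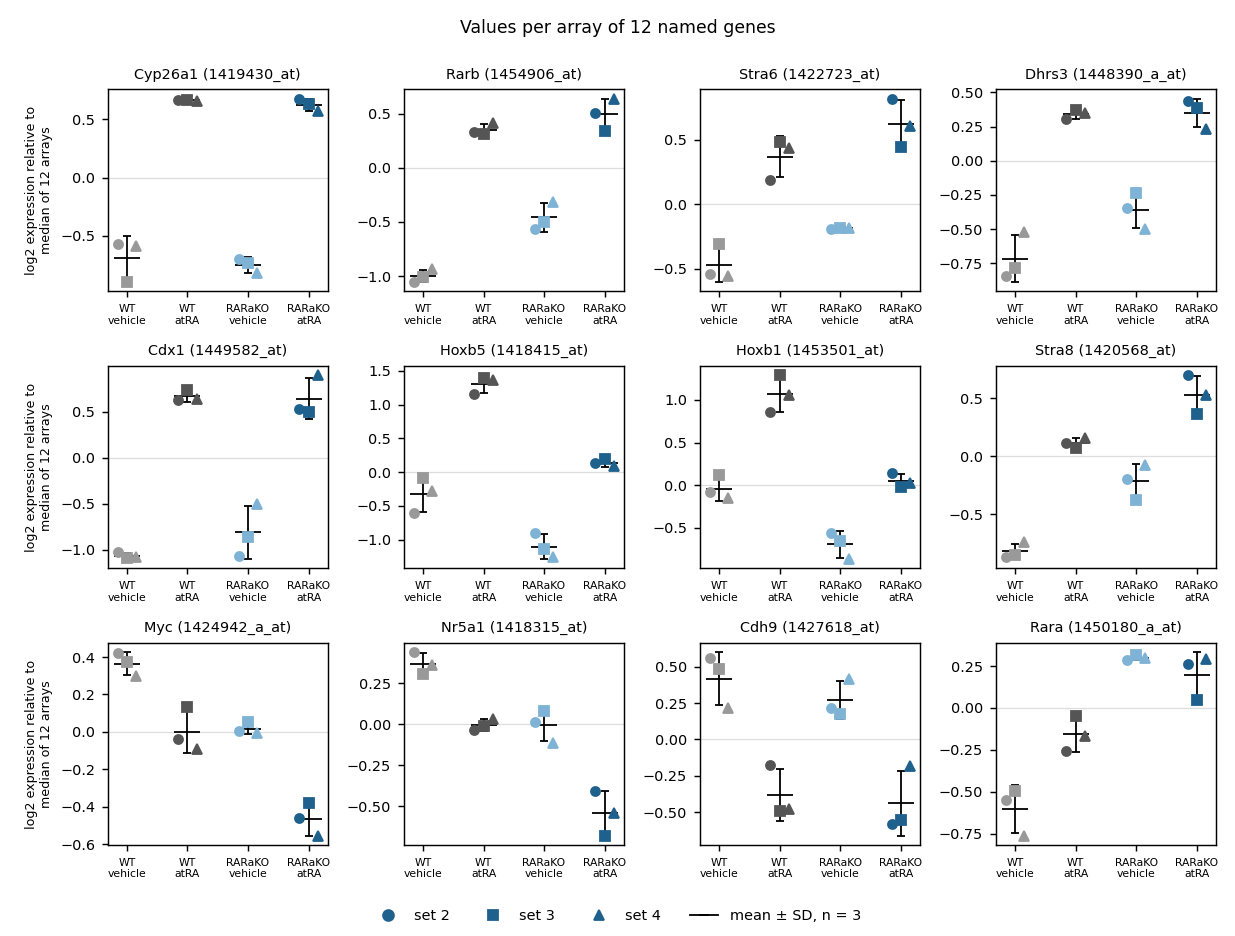
Log2 expression relative to the median of the 12 arrays (y axis) for 12 named genes in the 4 groups (x axis), 1 point per array with the set as the symbol, and the mean ± SD (n = 3) as bars. In Cyp26a1 the arrays labelled RARaKO run from -0.82 to -0.70 in vehicle and from 0.57 to 0.68 in atRA, while in Rara the same arrays overlap.

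Among genes that pattern the body axis, 4 of 30 measured Hox genes rose (13.3%). So did 2 of 16 measured Hox cofactors and caudal factors (12.5%), against 0.339% of all genes. Cdx1, a caudal homeobox factor of the posterior embryo that acts on Hox genes, had the largest difference of all named genes. It stood at -1.07, -0.86 and -0.50 in vehicle and at 0.53, 0.50 and 0.90 in atRA, and rose by 1.45 ± 0.13, or 2.74-fold (limma, adjusted p = 4.05e-04). Set 4 was the highest in both groups, so its difference of 1.40 resembled those of the other sets, 1.60 and 1.36. Hoxb5 stood at -0.91, -1.15 and -1.27 in vehicle and at 0.13, 0.20 and 0.09 in atRA, and rose by 1.25 ± 0.13, or 2.37-fold. Its groups were more than 1 log2 unit apart on average. The atRA arrays were the closer together, with an SD of 0.06 against 0.18 in vehicle. Hoxb1, expressed in the hindbrain of the embryo and a classical retinoic acid target, stood at -0.56, -0.65 and -0.87 in vehicle and at 0.14, -0.02 and 0.02 in atRA, a rise of 0.74 ± 0.11. Hoxb2 stood at -0.45, -0.45 and -0.57 against 0.36, 0.19 and 0.02, a rise of 0.68 ± 0.10.

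Hoxa4 showed where the sets mattered. Set 2 was the highest and set 4 the lowest in both groups, with -0.15, -0.54 and -0.83 in vehicle and 0.73, 0.34 and 0.15 in atRA. The groups therefore came close, while the difference within each set was steady, at 0.87, 0.87 and 0.98. It rose by 0.91 ± 0.16 (limma, adjusted p = 0.0444), with an adjusted p of 0.00402 when the set was a block. Hoxa5 had the same form, at -0.40, -0.89 and -1.07 in vehicle and 0.92, 0.23 and 0.05 in atRA. Its difference of 1.19 ± 0.22 was not called (limma, adjusted p = 0.0549) but was with the block (adjusted p = 1.91e-04), as its differences within the sets were 1.32, 1.12 and 1.12. The calls of Hoxa4 and Hoxb1 were lost when 4 and 5, respectively, of the 6 arrays were left out in turn, while that of Hoxb5 held without each of them. Pbx2, a cofactor that binds DNA together with Hox proteins, rose by 0.38 ± 0.06. Meis1 and Meis2, cofactors of the same kind, differed by 0.23 ± 0.11 and 0.27 ± 0.16 with overlapping groups.

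Along the clusters, the rise was seen at the 3′ side of Hoxa and Hoxb. Of the 9 measured Hoxa and Hoxb genes of paralogue groups 1 to 5, 4 rose and 7 had atRA arrays above every vehicle array, with a median of 0.68. Of the 9 of groups 6 to 13, 0 rose and 2 had groups apart in that direction, with a median of 0.12. None of the 12 measured Hoxc and Hoxd genes rose or fell, and their median was 0.02, with a range from -0.22 to 0.11. Over all genes, atRA arrays lay above every vehicle array for 7.24%. In the Hox list as a whole 4 of 30 measured genes rose, 0 fell, and the median was 0.10, against 56 of 16509 genes, or 0.339%, that rose and a median of -0.01 for all genes. Another probe set than the one that stood for the gene was called for Hoxa3 (0.82 ± 0.14) and for Hoxb3 (0.56 ± 0.09). Near-identical stretches between Hox genes may share probes, and that was not examined.

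Among 35 measured germ cell and meiosis genes 3 rose (8.57%), against 0.339% of all genes, and 0 fell. The median of the list was -0.02, against -0.01 over all genes. Stra8, which is needed for entry into meiosis and is induced by retinoic acid in the gonads, stood at -0.19, -0.38 and -0.08 in vehicle and at 0.70, 0.37 and 0.53 in atRA. The groups were well apart and the rise was 0.75 ± 0.09. Aurkc, an Aurora kinase of meiotic cells, stood at -0.40, -0.24 and -0.29 in vehicle and at 0.72, 0.86 and 0.81 in atRA, and the differences within the sets were 1.12, 1.10 and 1.09. With a rise of 1.10 ± 0.09 (limma, adjusted p = 1.90e-04) no vehicle array came near an atRA array. Kit, the receptor for stem cell factor, rose by 0.53 ± 0.09, with values of -0.02, -0.14 and -0.10 in vehicle and 0.49, 0.44 and 0.41 in atRA, and its call was lost without any 1 of the 6 arrays. Rec8, a meiotic cohesin, differed by 0.32 ± 0.09 and was not called (limma, adjusted p = 0.297). Tle6, a relative of the Groucho corepressors known from oocytes, is outside that list and stood at -0.30, -0.21 and -0.32 against 0.73, 0.67 and 0.57, a rise of 0.93 ± 0.08.

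**Figure D3:**
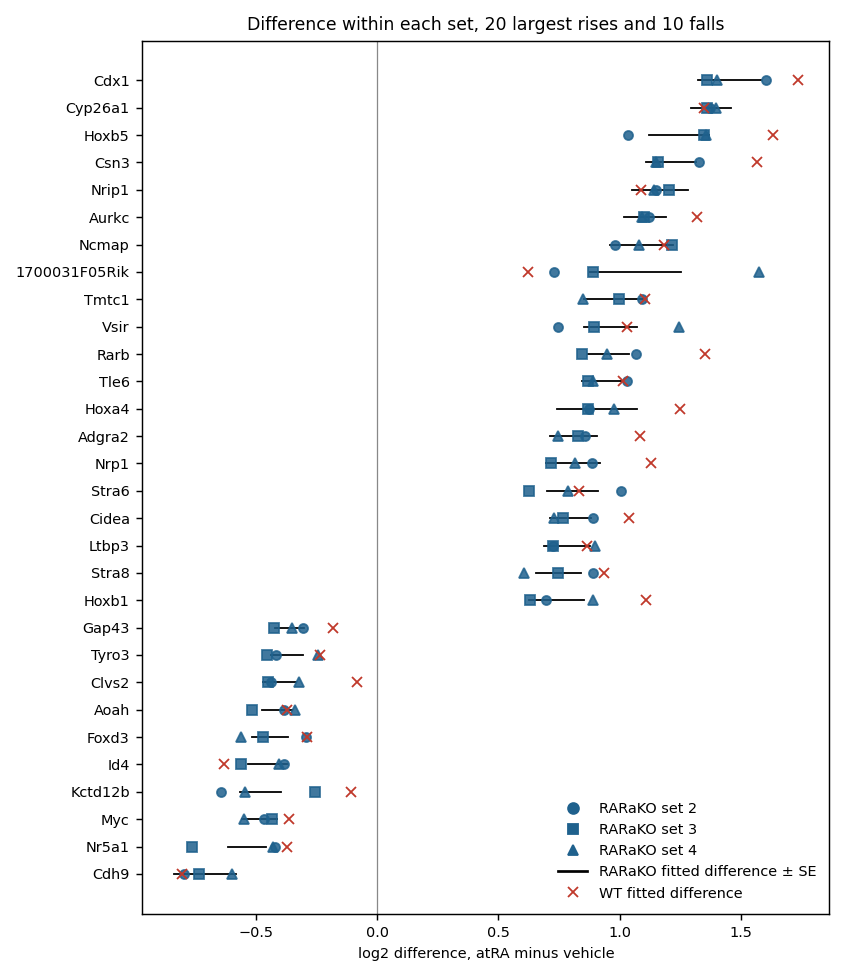
Log2 difference of atRA minus vehicle (x axis) within each set for the 20 largest rises and all 10 falls among genes read by 1 probe set (y axis), with the fitted RARaKO difference ± SE as a line and the fitted WT difference as a cross. All 3 sets lie on the same side of 0 for each gene, and those of Cyp26a1 and Aurkc nearly coincide.

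Other large rises lay outside the gene lists. Csn3, the milk protein kappa-casein, stood at -0.42, -0.45 and -0.39 in vehicle and at 0.91, 0.70 and 0.76 in atRA, a rise of 1.21 ± 0.10. Ncmap, a protein of myelinating cells, rose by 1.09 ± 0.13, from -0.49, -0.85 and -0.30 to 0.49, 0.36 and 0.77. Both had groups that were clearly apart, but the arrays of Ncmap were spread wider. The gene 1700031F05Rik rose by 1.06 ± 0.19 (limma, adjusted p = 0.0395), from -0.16, -0.15 and -0.08 to 0.56, 0.74 and 1.49. Its set 4 difference of 1.57 was far above those of sets 2 and 3, 0.73 and 0.89, and its call was lost without 4 of the 6 arrays. Tmtc1, an enzyme of the endoplasmic reticulum that adds mannose to proteins, rose by 0.98 ± 0.13, and its second probe set by 1.24 ± 0.09, with a smaller adjusted p (limma, 1.01e-04 against 0.00619). Vsir, an inhibitory receptor of T cell responses, rose by 0.96 ± 0.11, from -0.22, -0.28 and -0.72 to 0.52, 0.62 and 0.53. A second probe set of Vsir, of the same level class, differed by 0.18 ± 0.09 and was not called (limma, adjusted p = 0.65).

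Several receptor genes and genes of other roles rose by smaller amounts. Nrp1, a co-receptor for semaphorins and VEGF, stood at -0.62, -0.41 and -0.27 in vehicle and at 0.27, 0.30 and 0.55 in atRA, a rise of 0.81 ± 0.11, and a second probe set rose by 0.84 ± 0.13. Adgra2, an adhesion receptor of vessels in the brain, rose by 0.81 ± 0.10, from -0.17, -0.27 and -0.40 to 0.69, 0.55 and 0.35. Ltbp3, which binds latent TGF-beta, rose by 0.78 ± 0.10, and 3 of its 4 probe sets were called. Its atRA array of set 4, at 0.63, was above the other two, at 0.30 and 0.27. Cidea, a protein of lipid droplets, rose by 0.80 ± 0.08, from -0.38, -0.34 and -0.21 to 0.51, 0.43 and 0.52. Pdgfrb, a receptor for platelet-derived growth factor, rose by 0.52 ± 0.08 in the probe set that stood for the gene, at -0.41, -0.28 and -0.24 against 0.11, 0.14 and 0.39, and by 1.13 ± 0.17 in its other probe set. Both probe sets were of the same level class, and the call of the first was lost without 5 of the 6 arrays.

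Fgfr4, a fibroblast growth factor receptor, rose by 0.57 ± 0.07, from -0.43, -0.44 and -0.51 to 0.17, 0.14 and 0.01. Dusp5, a nuclear phosphatase that inactivates ERK, rose by 0.37 ± 0.06, from -0.23, -0.04 and -0.09 to 0.17, 0.28 and 0.28, and its call was lost without any 1 of the 6 arrays. They were the 2 of 21 measured FGF and ERK genes that rose (9.52%, against 0.339% of all genes), 0 fell, and the median of the list was 0.003. Only 1 of the 5 probe sets of Fgfr4 was called, and the other 4 differed by 0.11 to 0.29. Snai1, a repressor of epithelial genes in mesoderm formation, rose by 0.50 ± 0.07, with arrays at -0.20, -0.17 and -0.32 against 0.26, 0.21 and 0.35. With Cdx1 and Pdgfrb it made 3 of 23 measured streak and mesoderm genes that rose (13%), in a list whose median was -0.005. Cdc25b, a phosphatase that activates cyclin-dependent kinases, rose by 0.46 ± 0.08, from -0.37, -0.40 and -0.33 to 0.00, 0.05 and 0.22, and was the sole called member of 39 cell cycle genes.

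Genes below the 20 largest rises ran from 0.74 down to 0.37. They included Muc1, a membrane mucin (0.73 ± 0.10), Acp5, an acid phosphatase of osteoclasts (0.65 ± 0.08), Actn2, an actinin of muscle (0.71 ± 0.09) and Ackr3, a chemokine scavenger receptor (0.57 ± 0.09). Spread between arrays was small for several of them: Grasp stood at -0.27, -0.33 and -0.33 in vehicle and at 0.32, 0.34 and 0.27 in atRA, a rise of 0.61 ± 0.06. Abl1, a tyrosine kinase, rose by 0.43 ± 0.07, but a second probe set differed by -0.02 ± 0.08. Rapgef3, a cAMP-activated exchange factor (0.44 ± 0.08), and Tcp11, a testis gene (0.39 ± 0.07), were the calls of this kind lost with the set as a block (limma, adjusted p = 0.0511 and 0.0544).

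Falls were fewer and smaller. Among called genes read by the probe set that stood for them, Cdh9, a cadherin, had the largest fall. It stood at 0.22, 0.18 and 0.42 in vehicle and at -0.58, -0.56 and -0.18 in atRA. The fall was 0.71 ± 0.13 (limma, adjusted p = 0.0444). Set 4 was the highest in both groups. Nr5a1, the steroidogenic nuclear receptor SF-1, stood at 0.01, 0.08 and -0.11 against -0.41, -0.68 and -0.54 and fell by 0.54 ± 0.08. A second probe set of Nr5a1, of a lower level class, differed by 0.04 ± 0.17. Myc, a transcription factor of growth and proliferation, stood at 0.01, 0.05 and -0.01 in vehicle and at -0.46, -0.38 and -0.56 in atRA, and fell by 0.48 ± 0.07 (limma, adjusted p = 0.0146). No vehicle array overlapped an atRA array. Id4, which binds helix-loop-helix factors and keeps them off DNA, fell by 0.45 ± 0.08, from 0.13, 0.23 and 0.12 to -0.26, -0.33 and -0.29, and by 0.57 ± 0.08 in a second probe set.

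Foxd3, a forkhead factor of pluripotent cells, stood at 0.02, 0.09 and 0.21 against -0.27, -0.38 and -0.35, a fall of 0.44 ± 0.07. Foxd3 and Myc were the 2 of 38 measured pluripotency genes that fell (5.26%, against 0.0606% of all genes), and 0 rose. The list's median was -0.05. Pou5f1 and Nanog, which hold the undifferentiated state, differed by -0.01 ± 0.05 and 0.02 ± 0.14 (limma, adjusted p = 0.983 and 0.984). Otx2, a factor of the early epiblast, differed by -0.59 ± 0.14 with groups that did not overlap (0.58, 0.51 and 0.07 against -0.07, -0.09 and -0.46), but was not called (limma, adjusted p = 0.151). Gap43, a protein of growing axons, fell by 0.36 ± 0.06, from -0.09, -0.01 and -0.05 to -0.40, -0.43 and -0.40, and was the sole called member of 29 neural genes. With the set as a block Sox3 rose and Sox11 and Neurog3 fell in that list too (limma, adjusted p = 0.0016, 0.0292 and 0.039). Tyro3, a receptor tyrosine kinase, fell by 0.37 ± 0.07, from 0.26, 0.22 and 0.20 to -0.16, -0.23 and -0.04. Aoah, which deacylates bacterial lipopolysaccharide, fell by 0.41 ± 0.06, from -0.01, 0.00 and 0.00 to -0.40, -0.51 and -0.34. Its other probe set, of a lower level class, differed by -0.04 ± 0.13. The calls of the 10 genes that fell were each lost without at least 3 of the 6 arrays.

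Through a probe set other than the one that stood for the gene, 7 further genes fell. They were Fst, the activin-binding protein follistatin (-0.79 ± 0.12), Ccn4, a secreted matrix protein (-0.70 ± 0.11), Dapp1 (-0.59 ± 0.11), the growth factor Tgfb2 (-0.51 ± 0.09), Ghr, the growth hormone receptor (-0.45 ± 0.07), Apcdd1, an inhibitor of Wnt signalling (-0.43 ± 0.08), and Trim2, a ubiquitin ligase (-0.43 ± 0.08). Fst stood at 0.05, 0.30 and 0.01 in vehicle and at -0.63, -0.46 and -0.92 in atRA. The calls of Apcdd1 and Trim2 were lost with the set as a block (limma, adjusted p = 0.0503 for Apcdd1, and not below 0.05 for Trim2), and the other 4 probe sets of Apcdd1 differed by -0.19 to -0.01. The other probe set of Fst lay the same way, at -0.40 ± 0.10, without a call (limma, adjusted p = 0.196). In the other direction 11 genes rose through such a probe set, among them Gfra1, a receptor of the GDNF family (0.97 ± 0.17), Clps, pancreatic colipase (0.86 ± 0.14), the kinase Pim1 (0.53 ± 0.08), the water channel Aqp3 (0.48 ± 0.09 and 0.51 ± 0.07) and the forkhead factor Foxp1 (0.32 ± 0.05 and 0.49 ± 0.06). The other probe sets of Gfra1 differed by 0.18 and 0.32, without a call. Of the 84 genes with a called probe set, 46 had several, and in 41 of these all probe sets differed in 1 direction. Only 1 probe set was called in 36 of the 46, while 10 had 2 or more called and 3 had all called. No share over all genes stands beside the count of directions.

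**Figure D4:**
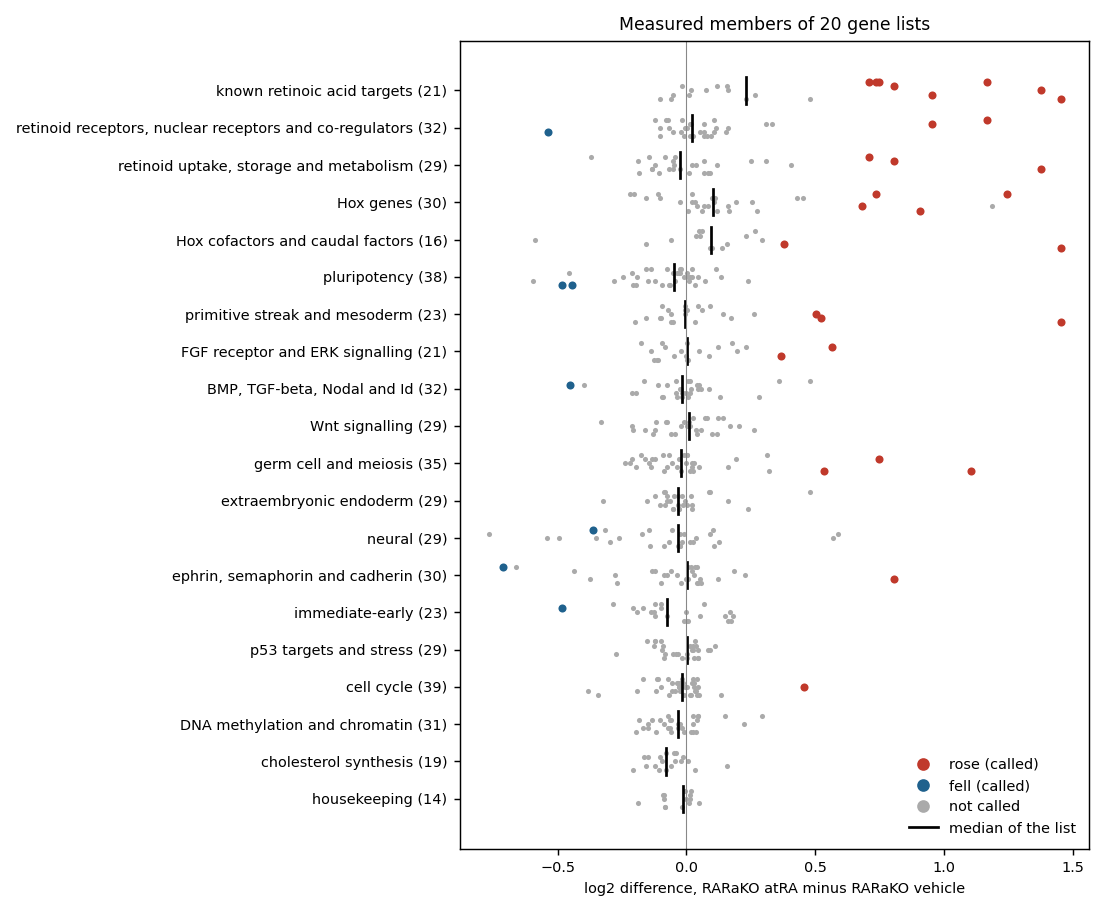
Log2 difference of RARaKO atRA minus RARaKO vehicle (x axis) for the measured members of 20 gene lists (y axis, number measured in brackets), 1 point per gene, with called genes coloured and the median of each list as a black line. The known retinoic acid targets have the highest median, 0.23, and 8 called members.

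Across the lists, the known retinoic acid targets had the most calls. Of 21 measured targets 8 rose, or 38.1%, against 0.339% of all genes. They were Cdx1, Cyp26a1, Nrip1, Rarb, Stra6, Stra8, Hoxb1 and Dhrs3, and 0 targets fell. The median was 0.23, against -0.01 over all genes. The list was drawn up with earlier results of these data known and is no independent evidence of its direction. Foxa1, an endoderm factor, was the next of them, at 0.48 ± 0.09 with groups that did not overlap and no call (limma, adjusted p = 0.0676; 0.0429 with the set as a block). It is also 1 of 29 measured extraembryonic endoderm genes, of which 0 rose and 0 fell. Gata6, an early endoderm factor, differed by 0.16 ± 0.16. No member was called among 29 Wnt genes, 29 p53 and stress genes, 31 chromatin genes, 19 cholesterol synthesis genes and 14 housekeeping genes (limma), with medians of 0.01, 0.00, -0.03, -0.08 and -0.01. At an unadjusted p below 0.05 these lists had 4, 0, 2, 1 and 0 members. Among 30 ephrin, semaphorin and cadherin genes Nrp1 rose and Cdh9 fell, and with the set as a block Sema3c and Efnb2 fell as well (limma, adjusted p = 0.03 and 0.034). Read by 1 probe set a gene, Id4 was the sole called member of 32 BMP and TGF-beta genes. The block added rises of Inhbb and Ski (limma, adjusted p = 0.0138 and 0.0316). Fst and Tgfb2 of this list also fell, with and without the block, through another probe set (-0.79 and -0.51). Myc was the sole called member of 23 immediate-early genes with and without the block. Of all genes read by 1 probe set, 82 rose (0.497%) and 25 fell (0.151%) with the block.

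The WT arrays show whether this response differed from that of cells with the receptor. In WT 214 probe sets were called (0.569%), 182 higher (0.484%) and 32 lower (0.0851%). Of the 99 called in the arrays labelled RARaKO, 85 were also called in WT, which is 85.9% of the 99 and 39.7% of the 214. The difference of the responses, RARaKO minus WT, was called for 0 of 37600 probe sets (0%, limma), and 1168 had an unadjusted p below 0.05. The median standard error of that difference was 0.12, which limits what could be called. Of the 99, 29 differed by more in the arrays labelled RARaKO than in WT, 15 of the 81 that rose and 14 of the 18 that fell. This split was not tested, and the 99 had been chosen by their size in the arrays labelled RARaKO.

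**Figure D5:**
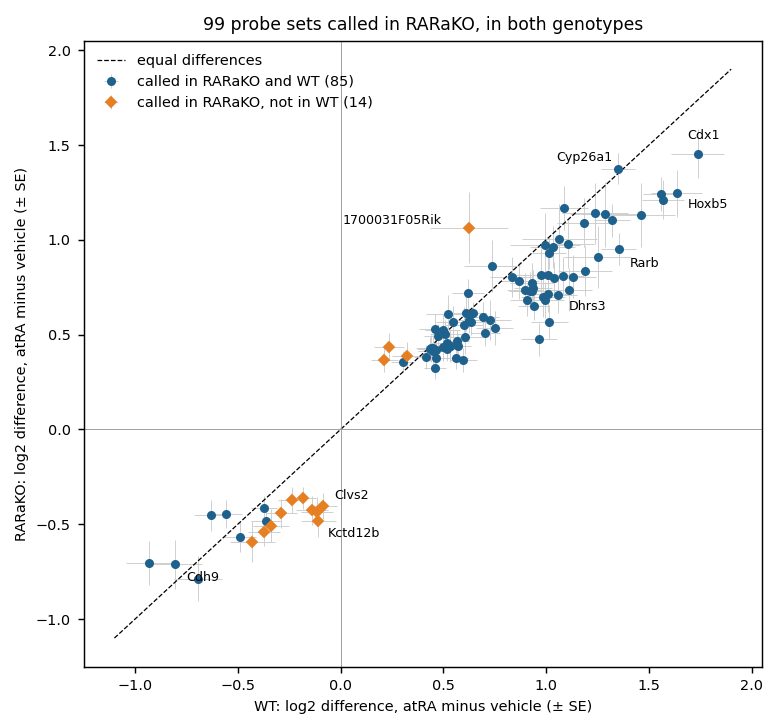
Log2 difference of atRA minus vehicle in WT (x axis) and in the arrays labelled RARaKO (y axis), each with its SE, for the 99 probe sets called in RARaKO; the dashed line marks equal differences. Most probe sets that rose lie below the line, 66 of 81, and all 99 have the same sign in both.

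Single genes illustrate both sides. Cyp26a1 differed between the responses by 0.03 (95% interval -0.23 to 0.28), with group means of -0.75 and 0.63 in the arrays labelled RARaKO and -0.69 and 0.66 in WT. Stra6 differed by -0.03 (-0.35 to 0.29) and Snai1 by -0.01 (-0.23 to 0.22). For Rarb the difference was -0.40 (-0.66 to -0.14, limma, unadjusted p = 0.00581, adjusted p = 1). Its vehicle means were -0.46 in the arrays labelled RARaKO and -1.0 in WT, its atRA means 0.49 and 0.35, so the smaller rise began from a higher vehicle value. Dhrs3 had the same form, with -0.35 (-0.64 to -0.06), vehicle means of -0.36 and -0.72, and atRA means of 0.35 and 0.34. The Hoxb genes had another: Hoxb5 differed by -0.39 (-0.77 to -0.01), and its means were -1.11 and 0.14 in the arrays labelled RARaKO against -0.33 and 1.30 in WT, lower in both treatments. Hoxb1 differed by -0.37 (-0.72 to -0.02), with means of -0.69 and 0.05 against -0.04 and 1.07. None of these differences of the responses passed the test over all probe sets. Some differences between the genotypes within a treatment did, in the same fit. Hoxb5 was lower than in WT in vehicle and in atRA (limma, adjusted p = 0.00475 and 2.75e-04), as was Hoxb1 (0.00765 and 3.6e-04). Rarb was higher in vehicle (0.00394) but not called in atRA (0.424), and Dhrs3 was not called in vehicle (0.063).

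A further 14 probe sets were called in the arrays labelled RARaKO and not in WT, 4 that rose and 10 that fell. All 14 had the same sign in WT, and 10 of them had an unadjusted p below 0.05 there, and a missing call in WT is no test of a difference. Clvs2, a protein of the endosomal pathway in neurons, stood at 0.29, 0.22 and 0.13 in vehicle and -0.15, -0.23 and -0.19 in atRA and fell by 0.40 ± 0.07, while it differed by -0.09 ± 0.07 in WT. The difference of the responses was -0.32 (-0.53 to -0.11, limma, unadjusted p = 0.00574, adjusted p = 1). Kctd12b stood at 0.53, 0.26 and 0.36 against -0.11, 0.00 and -0.19, fell by 0.48 ± 0.08, and differed by -0.11 ± 0.08 in WT. That difference was -0.38 (-0.64 to -0.12, limma, unadjusted p = 0.00829, adjusted p = 1). Its mean was 0.38 in RARaKO vehicle and 0.00 in WT vehicle, and -0.10 and -0.11 in atRA, so the arrays labelled RARaKO met the WT level in atRA.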

How the data were processed

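RNA from 12 samples was hybridised to 1-colour Affymetrix mouse arrays, with 3 arrays in each of 4 groups. The authors deposited log2 values made with GCRMA, per the submitters' processing notes, which name no version. The log base is not given in the sources used here and was taken to be 2, the scale GCRMA returns. Probe sets were already centred, each on the median of the 12 arrays, since the largest absolute row median was 7e-07. The level classes (at least 8, 4 to 8, under 4) were recovered from the number of digits kept in each value, and held 36.2%, 62.7% and 1.09% of the probe sets. Of the probe sets for ribosomal proteins 74 of 94 were in the highest class, and of those for olfactory receptors 0 of 26. Depth does not apply to arrays, and their number limits the precision.

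Of 37661 probe sets, 61 controls were left out. A single model with 1 mean per group was fitted to the 12 arrays with limma 3.58.1 in R 4.3.3 (8 residual and 4.6 prior degrees of freedom), and p-values were adjusted by Benjamini-Hochberg over 37600 probe sets. The fit was tested on simulated data. The platform annotation gave 30488 probe sets 1 symbol, 784 several and 6328 none. Each of the 16509 genes was read by the probe set of the highest level class, with less specific probe set types and higher numbers placed last. Named were the 20 largest rises and up to 17 largest falls (10 were available) among called genes whose groups did not overlap, every called list member, and a fixed set of retinoic acid and pluripotency genes. Genes outside that rule were chosen after their values were seen. The members, the rule and the 20 gene lists were chosen with earlier results of these data known. Promoters came from RefSeq (GRCm38.p6). Tables and plots were made with python 3.11.15, pandas 2.3.3 and matplotlib 3.10.9.

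Whether set numbers pair the arrays was checked from the correlation, across probe sets, of each array's deviation from its group mean. Between vehicle and atRA arrays of the same number it was 0.21, 0.117 and 0.497 for sets 2, 3 and 4 in RARaKO and 0.392, 0.267 and 0.101 in WT. All were above 0.1, so the numbers were taken to pair the arrays. The main fit did not use this pairing, so its calls and standard errors are unpaired. The set as a block was fitted beside it. Of the 12 unmatched pairs 2 also lay above 0.1: vehicle set 3 with atRA set 2 in RARaKO, at 0.117, and vehicle set 4 with atRA set 3 in WT, at 0.124. Alternatives were the set as a block, the 6 arrays alone with and without it, array weights, a robust variance prior, centring, quantile normalization, the highest level class alone, the mean of a gene's probe sets, and leaving out each array and each set.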

Additional observations from a re-analysis of the deposited data

Results flagged for a closer look

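For Rara, the differences of atRA minus vehicle were below 0 in every set labelled RARaKO and above 0 in every WT set. In sets 2, 3 and 4 they were -0.02, -0.27 and -0.01 in the arrays labelled RARaKO and 0.29, 0.45 and 0.60 in WT. In the arrays labelled RARaKO 2 of the 3 were close to 0 and the fitted difference was -0.10 ± 0.09, which was not called (limma, adjusted p = 0.839). The response labelled RARaKO minus that of WT was -0.55 ± 0.13 (SE, limma, unadjusted p = 8.13e-04, adjusted p = 1), so the difference did not pass the test over all probe sets. Rara is the gene named in the genotype label, and its probe set read higher in the arrays labelled RARaKO than in WT.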

How the results depend on the processing

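With the set number as a replicate block in the 12-array fit, 167 probe sets were called in the arrays labelled RARaKO, 124 higher and 43 lower. Of the 99 called without the block 95 were kept, 4 were lost and 72 were added. Among 66 called genes the block ended the calls of Rapgef3 and Tcp11 and no other, and the other 2 probe sets lost were those of Apcdd1 and Trim2. The 6 arrays labelled RARaKO alone gave 14 calls, 14 higher and 0 lower, and with the replicate block 62, 52 higher and 10 lower. These fits hold fewer arrays. Without single arrays or whole sets, the calls ranged from 2 to 88, the higher ones from 2 to 71 and the lower ones from 0 to 17. Without the whole of set 2, 3 or 4 they numbered 10, 2 and 17. An alternative chosen after seeing the data, the block without the atRA array of set 2, gave 72 calls, 62 higher and 10 lower. Array weights, a robust variance prior, centring, quantile normalization and the highest level class alone gave 83 to 118 calls.

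The direction of each of the 99 was the same under each of these settings in which it was tested. Their atRA and vehicle arrays did not overlap, so leaving out arrays in the main fit could not reverse a direction. The stable direction is therefore no support for the calls. Of the 66 gene calls, 30 held without each array in turn, 13 with the 6 arrays alone, 35 with those and the block, and 54 with the mean of a gene's probe sets. The difference of the responses was called for 0 probe sets in every setting in which it was fitted, with limma the sole tool run. Where the counts moved by more than 1.5 times, the cause was not tested beyond the smaller number of arrays in some fits.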

Other observations

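Genes called with the set as a block and not without it held further developmental factors. Sox3, a factor of neural progenitors, differed by 0.50, 0.58 and 0.69 in sets 2, 3 and 4, a rise of 0.59 ± 0.06 with the block (limma, adjusted p = 0.0016; 0.104 without it). A probe set of Elavl3, an RNA-binding protein of neurons, rose by 0.82 ± 0.14 (limma, adjusted p = 0.0286 with the block and 0.198 without it). It did not stand for the gene, and the one that did was not called in either fit. Krt20, a keratin of intestinal epithelium, rose by 0.76 ± 0.10 (adjusted p = 0.00709 and 0.0784). Thrsp, a protein linked to lipid synthesis, rose by 0.71 ± 0.07 (9.28e-04 and 0.132). Inhbb, an activin subunit, rose by 0.48 ± 0.07 (0.0138 and 0.32), all in limma with and without the block.

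Among the falls seen with the block, Cdx4, a relative of Cdx1 in the list of Hox cofactors and caudal factors, differed by -0.27, -0.84 and -0.66 in the sets, a change of -0.59 ± 0.09 (limma, adjusted p = 0.0162; 0.252 without the block), while Cdx1 rose. Ascl2, a factor of trophoblast and intestinal stem cells, changed by -0.67 ± 0.12 (0.0467; 0.297), Sema3c, a secreted guidance cue, by -0.66 ± 0.11 (0.03; 0.09), Neurog3, a factor of endocrine progenitors, by -0.54 ± 0.10 (0.039; 0.0521) and Sox11, a neural factor, by -0.50 ± 0.08 (0.0292; 0.294). Nefl, a neurofilament subunit, changed by -0.42 ± 0.06 (0.0162; 0.112). The ephrin gene Efnb2 changed by -0.44 and -0.46 in its 2 probe sets (0.034 and 0.0175; 0.0718 and 0.0926). These genes were chosen after their values were seen.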
